A study of Mus musculus with 14 samples.

Results

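The genes that build cholesterol, sense it and carry it were followed in mouse liver under endoplasmic reticulum stress. The set was fixed by name as 28 genes, and 27 of them had a probe set on the array. Acat2, the cytosolic thiolase that starts the pathway, is named only. Each gene was read from its brightest probe set, the one with the highest mean over the arrays, and all 27 passed the filter on low values among 12085 genes tested. They comprised 18 synthesis enzymes and 9 genes of control, uptake and transport. The study used 14 liver arrays in 4 groups: lsPERK liver under tunicamycin (n = 4), lsPERK control (n = 3), WT under tunicamycin (n = 4) and WT control (n = 3). Per the labels, tunicamycin was given at 1 mg/kg with collection at 6 h, controls received 0.3% DMSO, and lsPERK is the knock-out of the series. The labels name no promoter behind the knock-out, no deleted part of the gene, no age or sex of the mice and no collection time for the controls. They also do not say whether each replicate is an animal of its own. The p-values below therefore cover the spread among these samples, which may be technical.

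Cholesterol is made from acetyl-CoA through mevalonate, isoprenoid diphosphates, squalene and lanosterol. The transcription factors SREBP1 and SREBP2, encoded by Srebf1 and Srebf2, switch on most of these enzymes. They sit in the endoplasmic reticulum membrane with their escort Scap. When sterols are plentiful, the Insig proteins hold the complex there; when sterols run low, it moves to the Golgi, where proteases release the active factor. PERK, encoded by Eif2ak3, is a kinase of the same membrane that phosphorylates eIF2 under stress, and tunicamycin provokes that stress by blocking N-linked glycosylation. The liver is a main site of cholesterol synthesis and disposal.

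Eif2ak3 itself was 2.75 lower on the log2 scale in lsPERK than in WT liver under tunicamycin (limma, adjusted p = 1.47e-07). Under control it was 1.27 lower (adjusted p = 0.309), with arrays at 127 to 157 in lsPERK and 240 to 443 in WT liver. All 6 hepatocyte markers were bright, with array means of log2 14.01 to 14.21. Kupffer cell markers averaged log2 7.84 to 10.09 over the arrays, with overlapping ranges in the 4 groups. All 6 lay on the lower side under tunicamycin in both genotypes, with medians of -0.64 in the lsPERK and -0.7 in the WT response, and 1 (Cd5l) was called, in the WT response. Of 5 endothelial markers Stab2 and Kdr were called lower there, of 4 stellate markers Col3a1, and of 6 hepatocyte markers Tat was called higher (0.88). Of 3 cholangiocyte markers Sox9 was called higher in the lsPERK response (1.44). The part of these markers in the results was not tested. The markers Krt7, Spp1, Col1a1, Ly6g, Camp, Cd79a and Cyp11a1 were among those that did not pass the filter. The log2 ratio of the 3′ to the 5′ actin probe set, a sign of RNA integrity and labelling, was 0.59 to 0.78 in lsPERK tunicamycin, 0.58 to 1.04 in lsPERK control, 0.66 to 1.21 in WT tunicamycin and 1 to 1.26 in WT control liver. In whole liver, fewer cells of a type and less RNA per cell cannot be told apart. Xist, transcribed from the inactive X chromosome, was high on 2 of 4 lsPERK tunicamycin, 2 of 3 lsPERK control, 1 of 4 WT tunicamycin and 1 of 3 WT control arrays.

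Some arrays stood apart in the synthesis enzymes. Among lsPERK controls, replicate 1 was the highest of its group for 17 of 18 enzymes, and the median enzyme lay 0.99 above its 14-array mean on the log2 scale, against 0.21 and 0.13 for replicates 2 and 3. Among WT controls, replicate 2 was the highest for 18 of 18 enzymes, with a median deviation of 0.52, and replicate 1 was the lowest for 14. Among lsPERK tunicamycin arrays, replicate 1 was the highest for 16. The Xist-high arrays lay above the Xist-low arrays without overlap for 13 of 18 enzymes in the lsPERK tunicamycin group, where 25.4% of all genes did so. In the WT control group the Xist-high array instead lay below both others for 14 of 18 enzymes, as 36% of all genes did. The part of Xist status or of single arrays in the results was not tested beyond the values without them given below.

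**Figure D1:**
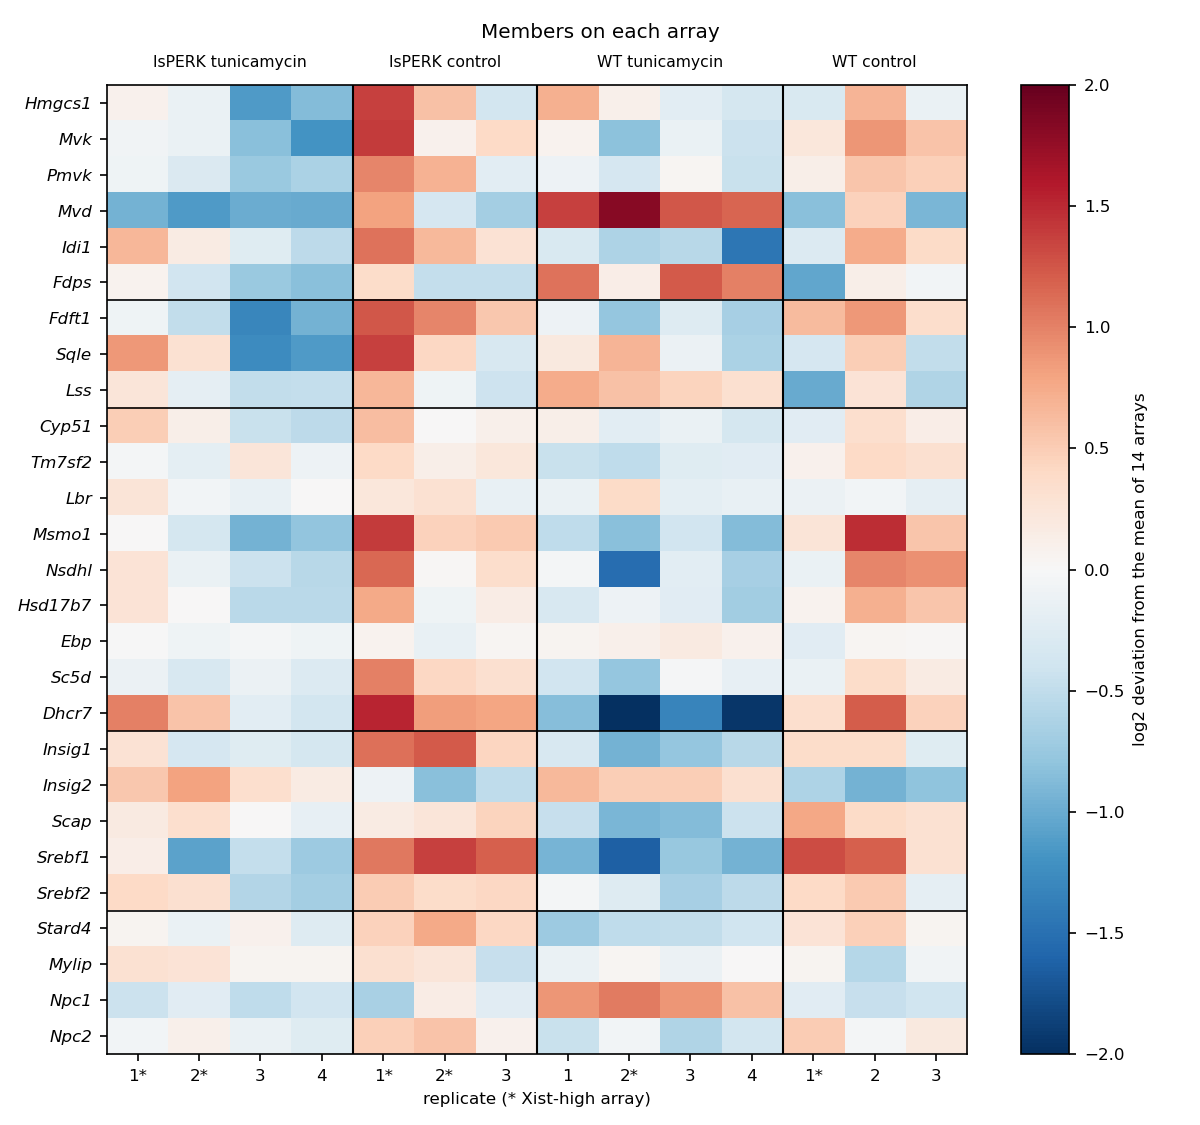
Each cell is the log2 deviation of 1 gene on 1 array from that gene's mean over 14 arrays, with genes from the start of the pathway (top) to sterol transport (bottom) and arrays by group; an asterisk marks Xist-high arrays. The enzymes are high together on lsPERK control replicate 1 (median deviation 0.99) and WT control replicate 2 (0.52), while Mvd is high on all 4 WT tunicamycin arrays.

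The upstream sequence of the genes was read from RefSeq (GRCm38.p6), as the 250 bases before each annotated start. Of the 28 genes, 23 matched and 5 of these had several starts, giving 31 windows; Fdps, Fdft1, Sqle, Stard4 and Npc1 are named only. The windows were searched on both strands for exact letters. The CCAAT box (CCAAT), bound by the factor NF-Y that works beside SREBPs, was found in 22 of 31 windows (71%), among them at least 1 window of 21 genes, against 34.7% of the 12493 windows of genes tested on the arrays. The GC box (CCGCCC), a site of Sp1, was found in 25 windows (80.6%), against 55.3%. The median GC content was 62.8% in the members' windows and 59.2% in those of the genes tested. The sterol regulatory element TCACCCCAC was found in Hmgcs1 alone, against 0.56% of tested windows, and its core CACCCCA in Hmgcs1, Acat2 and Srebf2 (9.68% of windows, against 7.13%). The E-box CACGTG was in 5 windows (Hsd17b7, Sc5d, Dhcr7, Insig1 and Scap; 16.1%, against 8.24%). The endoplasmic reticulum stress element, a CCAAT box followed at a fixed spacing by CCACG, was in 0 of 31 (0.12% of tested windows), and TGATGCAA, an amino acid response element read by ATF4, was in 1 window of Insig2 (0.56%). These are letter matches and carry no statement on binding.

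Of these, 5 upstream windows are printed because their genes behaved differently below: Hmgcs1 holds the sterol regulatory element, Mvd and Lss were higher under tunicamycin in WT liver, and Msmo1 and Insig1 were lower under tunicamycin in both genotypes. They run 5′ to 3′ towards the annotated start, and capitals mark CCAAT boxes (ATTGG where on the other strand), the sterol regulatory element and the E-box.
Hmgcs1, chr13:119690101-119690350, plus strand: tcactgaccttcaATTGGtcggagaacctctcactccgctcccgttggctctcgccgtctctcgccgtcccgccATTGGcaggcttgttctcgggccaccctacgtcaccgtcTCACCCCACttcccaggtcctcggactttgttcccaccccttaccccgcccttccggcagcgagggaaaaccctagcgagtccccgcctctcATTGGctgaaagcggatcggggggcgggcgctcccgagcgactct
Mvd, chr8:122443423-122443672, minus strand: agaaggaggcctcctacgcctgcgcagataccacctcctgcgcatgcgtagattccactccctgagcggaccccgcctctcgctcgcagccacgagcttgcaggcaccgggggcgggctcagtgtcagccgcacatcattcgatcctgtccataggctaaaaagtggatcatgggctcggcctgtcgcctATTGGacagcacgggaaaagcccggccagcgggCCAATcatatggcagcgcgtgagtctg
Lss, chr10:76531355-76531604, plus strand: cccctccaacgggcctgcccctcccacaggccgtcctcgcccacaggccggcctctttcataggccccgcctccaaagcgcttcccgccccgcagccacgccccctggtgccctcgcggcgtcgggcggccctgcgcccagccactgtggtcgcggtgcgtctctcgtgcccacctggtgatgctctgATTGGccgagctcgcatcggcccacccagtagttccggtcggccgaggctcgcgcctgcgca
Msmo1, chr8:64733579-64733828, minus strand: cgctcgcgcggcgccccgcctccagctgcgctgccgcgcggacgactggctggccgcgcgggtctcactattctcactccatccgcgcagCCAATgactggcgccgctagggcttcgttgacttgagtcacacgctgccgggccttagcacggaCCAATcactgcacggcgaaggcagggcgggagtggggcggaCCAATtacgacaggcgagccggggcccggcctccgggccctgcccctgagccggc
Insig1, chr5:28071162-28071411, plus strand: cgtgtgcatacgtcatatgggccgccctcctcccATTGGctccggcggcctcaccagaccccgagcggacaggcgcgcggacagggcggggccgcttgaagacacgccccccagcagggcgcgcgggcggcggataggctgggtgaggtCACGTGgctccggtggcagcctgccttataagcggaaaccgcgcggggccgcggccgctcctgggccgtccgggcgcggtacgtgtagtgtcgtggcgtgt

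**Figure D2:**
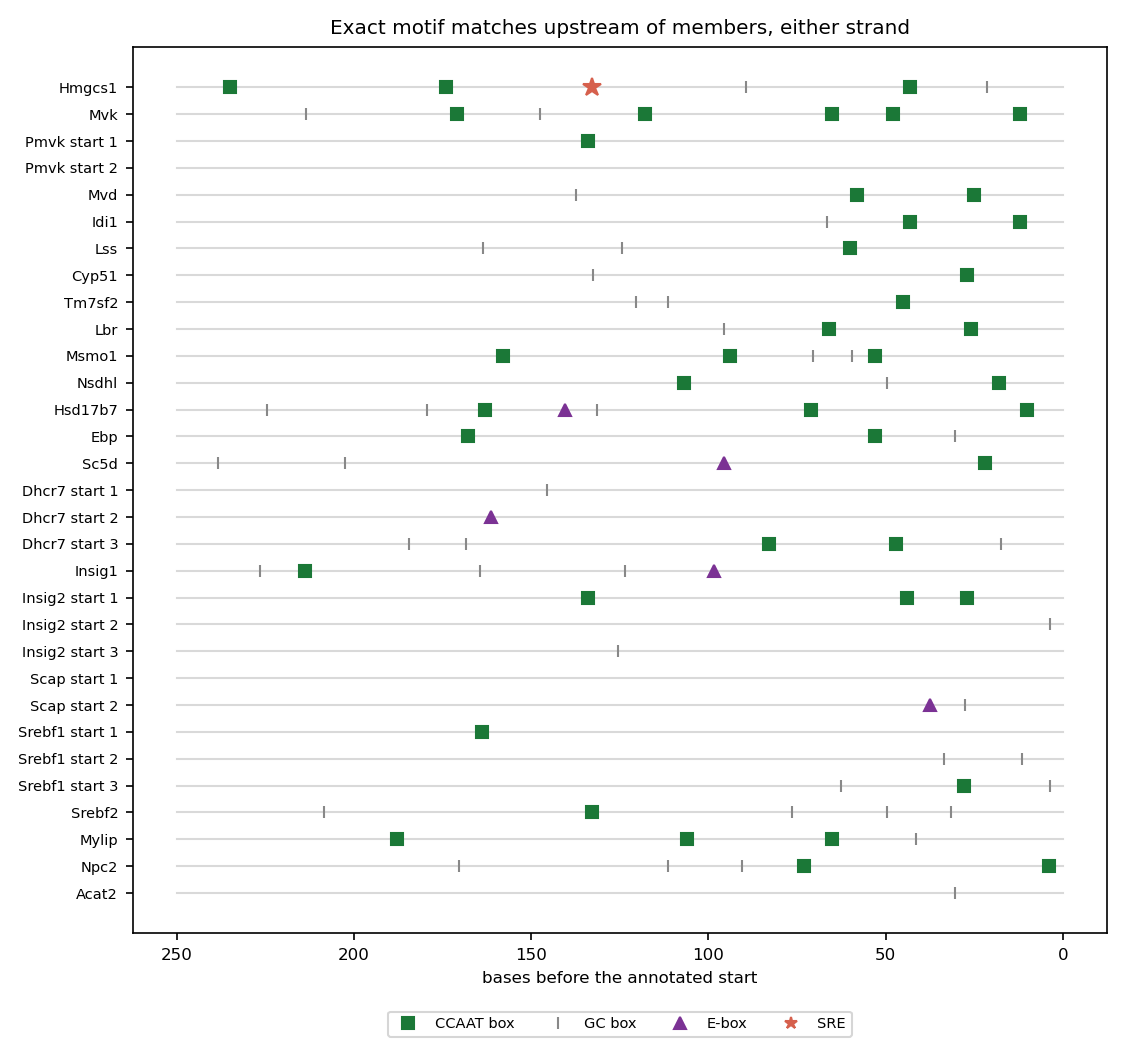
Each line is the 250 bases before 1 annotated start of 1 gene, drawn to scale with the start at the right, and symbols mark exact matches to the CCAAT box (squares), GC box (ticks), E-box (triangles) and sterol regulatory element (star) on either strand. CCAAT boxes lie in 22 of the 31 windows, and the sterol regulatory element in that of Hmgcs1.

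As normalized, tunicamycin lowered more of these genes than it raised in both genotypes. With the deposited values, not normalized further, this held in lsPERK liver (1 called higher, 5 lower) but not in WT liver (7 higher, 4 lower). The following counts are as normalized. In lsPERK liver, 8 of the 27 genes fell and 1 rose, where 7.27% of all genes tested fell and 8.42% rose (15.7% called in all). In WT liver, 13 fell and 5 rose, where 26% of all genes fell and 20.7% rose (46.7% called in all). The median enzyme differed by -0.75 on the log2 scale in the lsPERK response and by -0.53 in the WT response, against -0.02 and -0.13 for the median of all genes. The median of the 9 control, uptake and transport genes was -0.46 in the lsPERK response and -0.62 in the WT response. The falls shared by both genotypes were those of Mvk, Fdft1, Msmo1, Insig1, Srebf1 and Stard4, which make up 75% of the members' falls in lsPERK and 46.2% of those in WT liver; over all genes the shares were 72.4% and 20.2%. The rise of Insig2 was also shared. The enzymes divided in WT liver, where 3 rose (Mvd, Fdps and Lss) and 8 fell, whereas in lsPERK liver 5 fell and 0 rose.

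**Figure D3:**
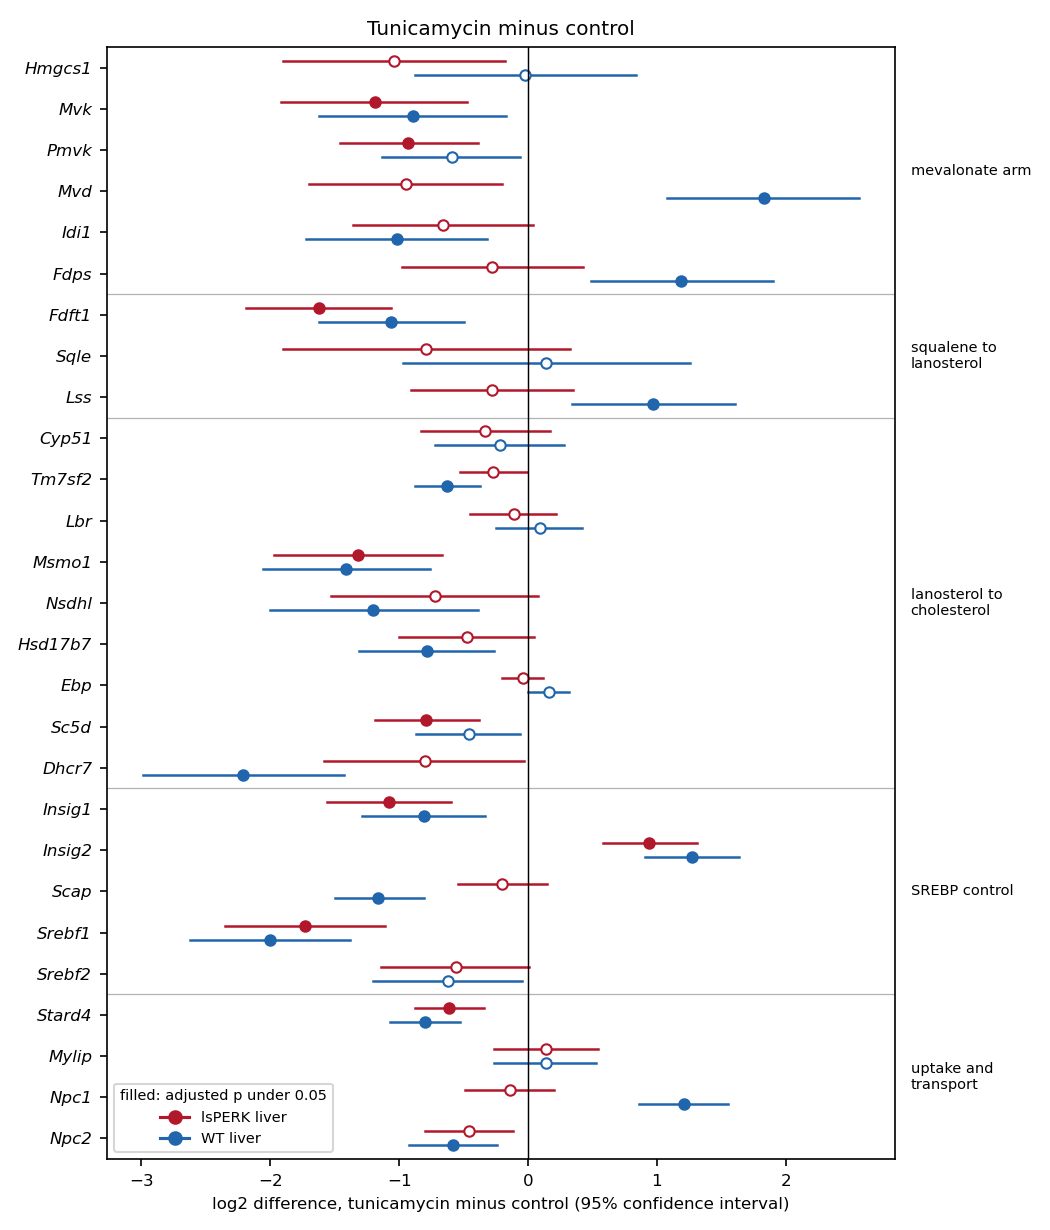
Points are log2 differences, tunicamycin minus control, with 95% confidence intervals, in lsPERK liver (red, upper) and WT liver (blue, lower) for 27 genes in pathway order; filled points have an adjusted p under 0.05. Mvd, Fdps, Lss and Npc1 lie right of 0 in WT liver (1.83, 1.19, 0.97 and 1.21) and left of it in lsPERK liver (-0.95, -0.28, -0.28 and -0.14).

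In the mevalonate arm, which turns acetyl-CoA into farnesyl diphosphate, 6 genes were measured, and Mvd and Fdps differed between genotypes under tunicamycin. Mvd, the decarboxylase that makes isopentenyl diphosphate, had normalized intensities of 196, 171, 189 and 187 on lsPERK tunicamycin arrays, against 658, 296 and 235 on lsPERK controls. On WT tunicamycin arrays Mvd had 960, 1323, 885 and 838, against 210, 516 and 199 on WT controls. Every WT tunicamycin array thus lay above every other array of the series. Mvd rose 3.54-fold in WT liver (95% confidence interval 2.11 to 5.96, adjusted p = 0.000677), and its difference in lsPERK liver was -0.95 ± 0.35 (log2, SE; adjusted p = 0.086). Under tunicamycin it was 5.31-fold lower in lsPERK than in WT liver (3.28 to 8.58, adjusted p = 6.5e-05), and the responses themselves differed by -2.77 ± 0.49 (adjusted p = 0.0018). A further probe set of Mvd gave 2.57 for the WT response and -2.76 for lsPERK minus WT under tunicamycin.

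Fdps, the synthase of farnesyl diphosphate, had 5340, 3933, 3029 and 2877 on lsPERK tunicamycin arrays, against 6553, 3667 and 3685 on lsPERK controls. Its WT tunicamycin arrays had 10777, 5614, 11993 and 10241, against 2486, 5544 and 4880 on WT controls. The lowest WT tunicamycin array, the Xist-high replicate 2, was close to the highest WT control, and the groups did not overlap. Fdps rose 2.28-fold in WT liver (1.4 to 3.72, adjusted p = 0.0084) and was 2.52-fold lower in lsPERK than in WT liver under tunicamycin (1.61 to 3.97, adjusted p = 0.00347). The WT rise lost its call with the actin ratio as a covariate (0.9, adjusted p = 0.0538) and without WT control replicate 1 (0.84, adjusted p = 0.0533). The Xist-high arrays include 1 WT tunicamycin array, this replicate 2, and 1 WT control array. On Xist-high arrays alone the WT difference was 1.18, and lsPERK minus WT under tunicamycin was -0.29. The difference between responses was -1.47 ± 0.46 (adjusted p = 0.0394), and this call was lost in 15 of 29 alternatives, with adjusted p up to 0.173.

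Of the other 4 genes of the arm, Mvk fell in both genotypes, Pmvk in lsPERK and Idi1 in WT liver, while Hmgcs1 passed no test. Mvk, mevalonate kinase, had 223, 214, 131 and 103 on lsPERK tunicamycin arrays, against 619, 250 and 310 on lsPERK controls, and fell 2.29-fold in lsPERK liver (adjusted p = 0.0283). With the replicate number as a block that call was lost (adjusted p = 0.0547). In WT liver Mvk fell 1.86-fold (adjusted p = 0.0433), with 133 to 246 under tunicamycin and 274 to 435 in controls. Over the alternatives, the lsPERK call of Mvk was lost in 9 of 30 and the WT call in 14 of 30. A further probe set of Mvk was not called in lsPERK (-0.8, adjusted p = 0.125) or WT liver (-0.49, adjusted p = 0.239). Pmvk, the next kinase, fell in lsPERK liver (-0.93 ± 0.25, adjusted p = 0.0213), and its WT difference of -0.59 did not pass the test (adjusted p = 0.0648). Its lsPERK arrays overlapped, with 394 to 622 under tunicamycin and 571 to 1298 in controls. The lsPERK call of Pmvk was lost in 8 of 29 alternatives, among them the values as deposited (-0.95, adjusted p = 0.109) and median centring (-0.83, adjusted p = 0.0559). Idi1, the isomerase that balances the isoprenoid units, fell in WT liver (-1.02 ± 0.33, adjusted p = 0.0195). Its WT arrays had 1091 to 2425 under tunicamycin and 2462 to 5009 in controls. The WT call of Idi1 was lost in 8 of 30 alternatives, among them the values as deposited (-0.58, adjusted p = 0.272) and median centring (-0.87, adjusted p = 0.0582). A further probe set of Idi1 gave -1.02 there (adjusted p = 0.0608). In lsPERK liver Idi1 differed by -0.66 (adjusted p = 0.203). Hmgcs1, the synthase that commits acetoacetyl-CoA to this route, had 2171 to 5038 in lsPERK tunicamycin and 3696 to 12185 in lsPERK control liver, and its difference of -1.04 ± 0.4 missed the threshold (adjusted p = 0.102). Its WT difference was -0.02, with a 95% confidence interval of -0.88 to 0.84.

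The step from farnesyl diphosphate to lanosterol takes 3 enzymes. Fdft1, squalene synthase, had 2599, 1941, 1112 and 1434 on lsPERK tunicamycin arrays, against 6466, 5414 and 3992 on lsPERK controls. It had 2562, 1612, 2299 and 1738 on WT tunicamycin arrays, against 4240, 5000 and 3502 on WT controls. All tunicamycin arrays thus lay below all controls of either genotype. Fdft1 fell 3.08-fold in lsPERK liver (2.09 to 4.55, adjusted p = 0.000819) and 2.09-fold in WT liver (1.41 to 3.08, adjusted p = 0.0043), and the difference between responses did not pass the test (-0.56 ± 0.37, adjusted p = 0.33). Without any scaling of the arrays beyond the deposited values, the WT fall was -0.62 and no longer called (adjusted p = 0.142).

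Lss, the cyclase that closes the sterol rings, had 1250, 940, 753 and 762 on lsPERK tunicamycin arrays, against 1684, 996 and 800 on lsPERK controls. It had 1773, 1589, 1447 and 1329 on WT tunicamycin arrays, against 526, 1276 and 699 on WT controls. The lowest WT tunicamycin array was just above WT control replicate 2. Lss rose 1.96-fold in WT liver (1.27 to 3.04, adjusted p = 0.0143) and was 1.68-fold lower in lsPERK than in WT liver under tunicamycin (adjusted p = 0.0448). The WT rise lost its call in 5 of 30 alternatives, among them the actin covariate (0.74, adjusted p = 0.08) and the fits without WT control replicate 1 (0.69, adjusted p = 0.0846) and without WT control replicate 3 (0.9, adjusted p = 0.0532). The comparison under tunicamycin lost its call in 15 of 30, and the difference between responses (-1.26 ± 0.42, adjusted p = 0.0475) in 18 of 30. The next brightest probe set of Lss placed the change elsewhere: it fell in lsPERK liver (-1.28, adjusted p = 0.00184) and had a WT difference of 0.12 (adjusted p = 0.717), while lsPERK minus WT under tunicamycin was -0.89 (adjusted p = 0.00516). Sqle, squalene epoxidase, spread widely, with 2748, 1864, 628 and 689 on lsPERK tunicamycin arrays, where the Xist-high pair was the higher one, against 3851, 2002 and 1206 on lsPERK controls. It passed no test (lsPERK response -0.79, adjusted p = 0.359; WT response 0.14, adjusted p = 0.846).

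Of the 9 enzymes between lanosterol and cholesterol, 2 fell in lsPERK liver and 5 fell in WT liver, and 0 rose in either; over all genes 7.27% fell in lsPERK and 26% in WT liver. Dhcr7, the reductase that makes cholesterol from dehydrocholesterol, had 1445, 1073, 627 and 563 on lsPERK tunicamycin arrays, against 2088, 1296 and 1254 on lsPERK controls. It had 402, 176, 290 and 187 on WT tunicamycin arrays, against 918, 1671 and 995 on WT controls. The 4 WT tunicamycin arrays were the lowest of the series. Dhcr7 fell 4.62-fold in WT liver (2.69 to 7.93, adjusted p = 0.000207), and its lsPERK difference was -0.8 ± 0.36 (adjusted p = 0.162). Under tunicamycin it was 3.45-fold higher in lsPERK than in WT liver (2.09 to 5.69, adjusted p = 0.000906), opposite in direction to Mvd, Fdps and Lss. The difference between its responses was 1.4 ± 0.51 and missed the threshold (adjusted p = 0.0717).

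Msmo1, a monooxygenase that acts in removing sterol methyl groups, had 3785, 2974, 1952 and 2183 on lsPERK tunicamycin arrays, against 9980, 5205 and 5414 on lsPERK controls. It had 2660, 2111, 2914 and 2077 on WT tunicamycin arrays, against 4537, 10458 and 5581 on WT controls. It fell 2.49-fold in lsPERK liver (adjusted p = 0.00927) and 2.66-fold in WT liver (adjusted p = 0.0016), with no overlap of treated and control arrays in either. The interval of the difference between responses was -0.82 to 1.01 on the log2 scale. Nsdhl and Hsd17b7, which complete the same demethylation, fell in WT liver (-1.2, adjusted p = 0.0173, and -0.78, adjusted p = 0.0175); their lsPERK differences of -0.72 and -0.47 did not pass the test. Nsdhl overlapped between treated and control WT arrays (752 to 2103, against 1960 to 4276), while Hsd17b7 did not (862 to 1310, against 1475 to 2301). The WT call was lost in 6 of 29 alternatives for Nsdhl and in 9 of 30 for Hsd17b7. As deposited, the Hsd17b7 difference was -0.27 (adjusted p = 0.54). The further probe sets of Hsd17b7 were not called in WT liver (-0.42, -0.43 and -1.04).

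Sc5d, the desaturase before the last reductions, fell in lsPERK liver, where it had 3783 to 4374 under tunicamycin and 5893 to 9462 in controls (-0.79 ± 0.19, adjusted p = 0.0115). Its WT difference was -0.46 (adjusted p = 0.057), and both further probe sets of Sc5d were called lower there (-1.21 and -1.01). Tm7sf2, a sterol reductase, fell in WT liver (-0.63 ± 0.12, adjusted p = 0.000691), with 2247 to 2737 under tunicamycin and 3387 to 4229 in controls. With the values as deposited this WT difference was -0.2 and not called (adjusted p = 0.43). Tm7sf2 was higher in lsPERK than in WT liver under tunicamycin (0.33, adjusted p = 0.0317). That genotype call was lost in 9 of 29 alternatives, among them the values as deposited (0.15, adjusted p = 0.594), median centring (0.24, adjusted p = 0.308) and 4 of the fits without 1 array. Lbr, which pairs the same reductase activity with a role in anchoring chromatin to the nuclear envelope, passed no test. Ebp, the sterol isomerase, stayed within 6926 to 9105 on all arrays, and Cyp51, the lanosterol demethylase, within 1396 to 3076; neither passed a test.

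**Figure D4:**
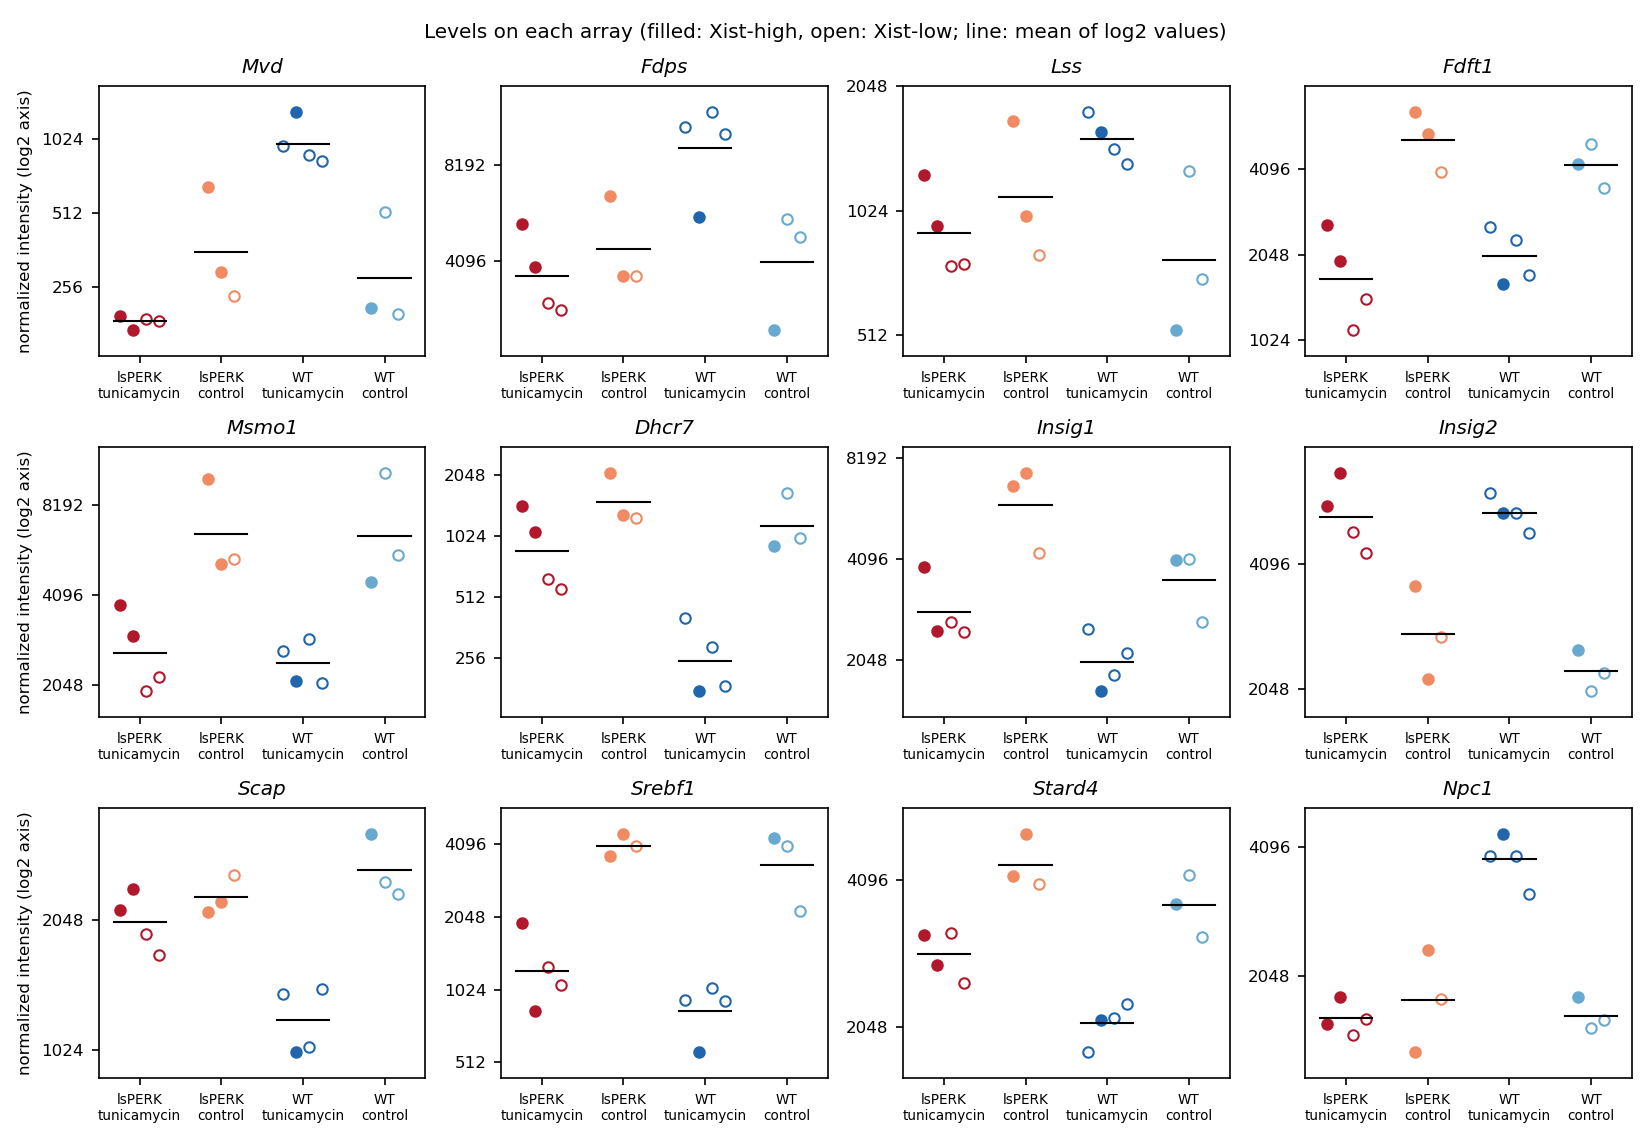
Normalized intensity on a log2 axis for 12 genes, 1 point per array (filled for Xist-high, open for Xist-low arrays) with a line at the mean of the log2 values, in lsPERK tunicamycin, lsPERK control, WT tunicamycin and WT control liver. For Mvd and Npc1 the 4 WT tunicamycin arrays lie above all others (838 to 1323 and 3182 to 4379), and for Dhcr7 below all others (176 to 402).

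The genes that control SREBP moved in opposite directions. Insig2 rose in both genotypes, while Insig1 and Srebf1 fell in both and Scap fell in WT liver. Insig2 had 5659, 6796, 4892 and 4350 on lsPERK tunicamycin arrays, against 3636, 2163 and 2731 on lsPERK controls. It had 6098, 5459, 5453 and 4865 on WT tunicamycin arrays, against 2540, 2022 and 2235 on WT controls. The rise was 1.92-fold in lsPERK liver (1.49 to 2.48, adjusted p = 0.00199) and 2.42-fold in WT liver (1.87 to 3.12, adjusted p = 3.74e-05). Under tunicamycin the genotypes differed by -0.03, with a 95% confidence interval of -0.37 to 0.31.

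Insig1, a target of SREBP as well as its brake, had 3869, 2503, 2664 and 2480 on lsPERK tunicamycin arrays, against 6774, 7394 and 4259 on lsPERK controls. It had 2526, 1650, 1839 and 2152 on WT tunicamycin arrays, against 4065, 4083 and 2661 on WT controls. It fell 2.11-fold in lsPERK liver (adjusted p = 0.00501) and 1.75-fold in WT liver (adjusted p = 0.00877). The WT fall lost its call as deposited (-0.37, adjusted p = 0.396) and with median centring (-0.66, adjusted p = 0.0603). On Xist-low arrays alone, which hold 1 lsPERK control, the lsPERK difference was -0.73. Between the controls, Insig1 was 0.76 higher in lsPERK than in WT liver, with an unadjusted p of 0.00721 and an adjusted p of 0.992 (limma).

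Srebf1, which encodes the SREBP form tied to fatty acid synthesis, had 1930, 839, 1271 and 1069 on lsPERK tunicamycin arrays, against 3652, 4515 and 4014 on lsPERK controls. It had 924, 564, 1042 and 917 on WT tunicamycin arrays, against 4334, 4032 and 2177 on WT controls. The groups did not overlap in either genotype. It fell 3.32-fold in lsPERK liver (2.16 to 5.11, adjusted p = 0.00109), and in WT liver its log2 difference was -2 ± 0.29 (adjusted p = 7.12e-05). The call held under all 29 alternatives for which it could be tested in each genotype. Srebf2, which encodes the form tied to cholesterol synthesis, was 187 to 396 in lsPERK tunicamycin and 386 to 423 in lsPERK control liver. Its differences of -0.56 in lsPERK and -0.62 in WT liver did not pass the test (adjusted p = 0.187 and 0.0721), and a further probe set was called lower in WT liver (-0.95, adjusted p = 0.00255).

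Scap, the escort, had 2163, 2420, 1907 and 1705 on lsPERK tunicamycin arrays, against 2139, 2254 and 2615 on lsPERK controls. It had 1384, 1013, 1044 and 1419 on WT tunicamycin arrays, against 3247, 2510 and 2361 on WT controls. The WT tunicamycin arrays were the lowest of the series. Scap fell 2.23-fold in WT liver (1.76 to 2.83, adjusted p = 4.82e-05), against a difference of -0.2 ± 0.16 in lsPERK liver (adjusted p = 0.471). The responses differed by 0.96 ± 0.23 (adjusted p = 0.00935), and Scap was 1.69-fold higher in lsPERK than in WT liver under tunicamycin (adjusted p = 0.00122). The next brightest probe set of Scap was dim, with a mean log2 of 4.92 against 10.9. With it the WT difference was -0.72 (adjusted p = 0.158), lsPERK minus WT under tunicamycin 0.6 (adjusted p = 0.241) and the difference between responses 0.85 (adjusted p = 0.345).

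Of the 4 genes of uptake and transport, Npc1 differed most between genotypes. Npc1, which exports cholesterol from the lysosome, had 1575, 1830, 1492 and 1624 on lsPERK tunicamycin arrays, against 1357, 2356 and 1809 on lsPERK controls. It had 3903, 4379, 3903 and 3182 on WT tunicamycin arrays, against 1821, 1542 and 1610 on WT controls. Every WT tunicamycin array lay above every other array. Npc1 rose 2.31-fold in WT liver (1.82 to 2.93, adjusted p = 3.13e-05) and was 2.35-fold lower in lsPERK than in WT liver under tunicamycin (1.88 to 2.92, adjusted p = 2.58e-05). The responses differed by -1.35 ± 0.23 (adjusted p = 0.00122).

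Npc2, its soluble partner, did not rise with it. As normalized it fell in WT liver, with 2062 to 3029 under tunicamycin and 3032 to 4449 in controls (-0.58 ± 0.16, adjusted p = 0.00764). With the values as deposited the WT difference of Npc2 was -0.16 and not called (adjusted p = 0.648). Stard4, a cytosolic sterol carrier and SREBP target, had 3156, 2746, 3191 and 2524 on lsPERK tunicamycin arrays, against 4176, 5083 and 4022 on lsPERK controls. It had 1821, 2121, 2138 and 2287 on WT tunicamycin arrays, against 3659, 4197 and 3137 on WT controls. Stard4 fell in lsPERK (-0.61, adjusted p = 0.00476) and in WT liver (-0.8, adjusted p = 0.000135). Under tunicamycin it was higher in lsPERK than in WT liver (0.47, adjusted p = 0.00592). That genotype call was lost in 4 of 30 alternatives: as deposited (0.28, adjusted p = 0.363), with median centring (0.36, adjusted p = 0.121) and on either Xist subset. Its further probe sets gave 0.4 (adjusted p = 0.00599) and 0.21 (adjusted p = 0.274). The lsPERK fall lost its call in 3 of 30 alternatives and the WT fall in 1 of 30. Mylip, the ubiquitin ligase that sends lipoprotein receptors to degradation, differed by 0.14 in each genotype and passed no test.

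Between genotypes under tunicamycin, 4 genes were higher in lsPERK than in WT liver (Dhcr7, Tm7sf2, Scap and Stard4) and 4 were lower (Mvd, Fdps, Lss and Npc1), where 18.5% of all genes were higher and 16.8% lower (35.3% in all). The median enzyme differed by -0.06 and the median control, uptake and transport gene by 0.28, against 0.05 for all genes. The difference between responses was called for 5 of 27 genes (19.9% of all genes). In lsPERK minus WT, 4 were lower (Mvd, Fdps, Lss and Npc1; 9.67% of all genes) and 1 was higher (Scap; 10.2%). These comparisons share the treated arrays with the responses above and are not further evidence for them. Under control, 0 of 27 genes were called and 0% of all genes in limma, with 512 of 12085 genes at an unadjusted p under 0.05. Among the 27, Insig1 and Sc5d had an unadjusted p under 0.05. In that comparison 15 of 18 enzymes were on the higher side in lsPERK, against 5576 of 12085 genes tested. The median was 0.2 for the enzymes and -0.02 for all genes. Leaving out lsPERK control replicate 1 brought the enzyme median to -0.01.

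**Figure D5:**
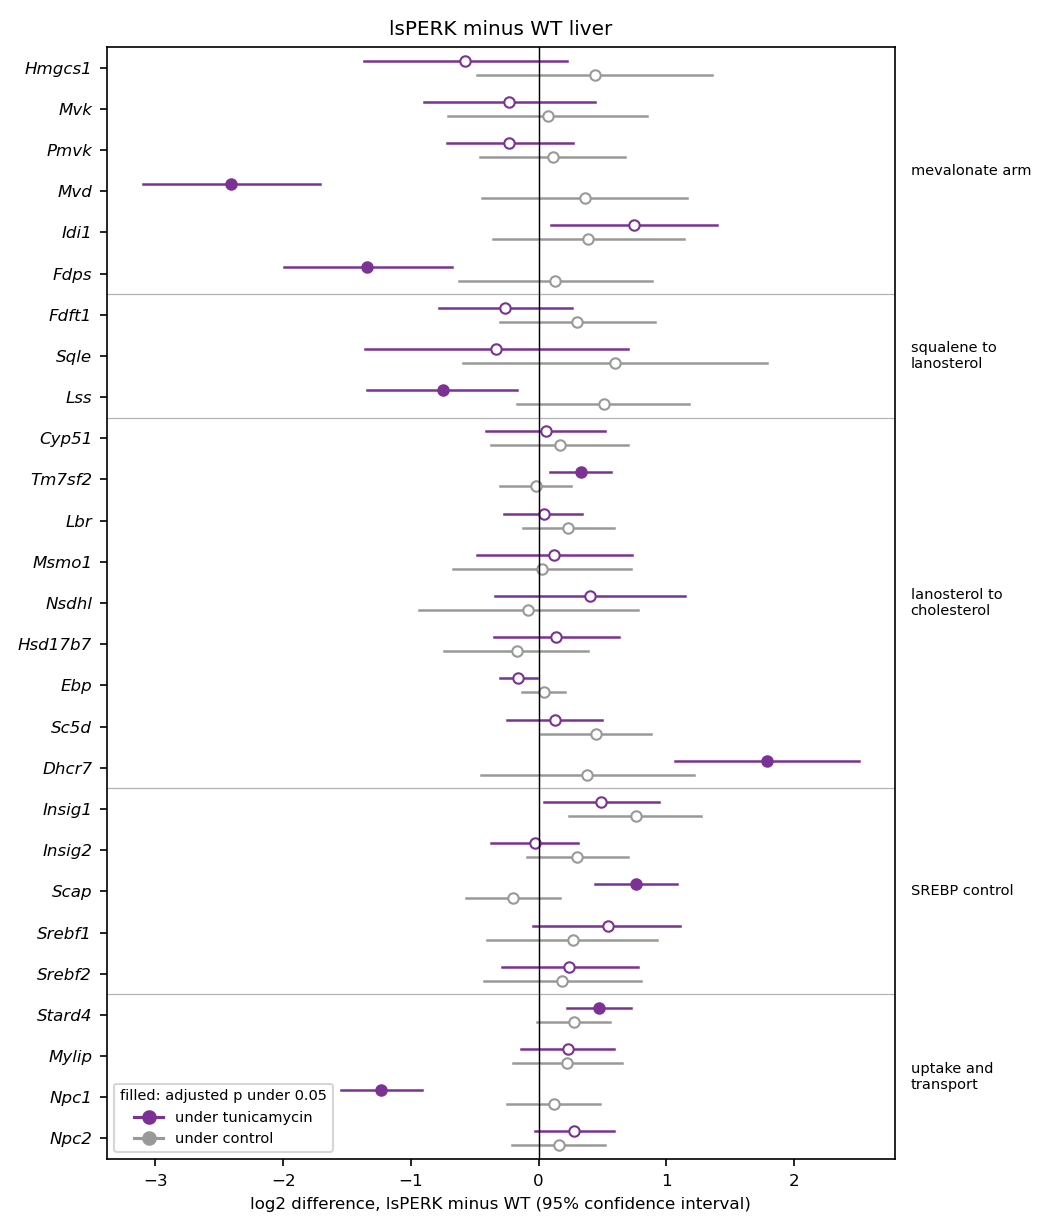
Points are log2 differences, lsPERK minus WT, with 95% confidence intervals, under tunicamycin (purple, upper) and under control (grey, lower) for 27 genes in pathway order; filled points have an adjusted p under 0.05. Under tunicamycin Mvd (-2.41), Fdps (-1.34), Lss (-0.75) and Npc1 (-1.23) lie left and Dhcr7 (1.79), Scap (0.76), Stard4 (0.47) and Tm7sf2 (0.33) right of 0, and no point under control is filled.

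Several of these counts rest on particular arrays and on scaling. Without lsPERK control replicate 1 and WT control replicate 2, a choice made after seeing the data, 7 genes were called in the lsPERK response and 14 in the WT response, 8 in lsPERK minus WT under tunicamycin and 4 in the difference between responses; the median enzyme was then -0.43 in each response. Without lsPERK control replicate 1 alone, 6 genes were called in lsPERK liver, Mvk, Pmvk and Sc5d being lost, and without lsPERK control replicate 3, 12. Without WT control replicate 2, 14 were called in WT liver, Mvk, Idi1, Nsdhl and Hsd17b7 being lost. The median of all genes in the WT response was -0.13 as normalized and 0.3 with the values as deposited; of the members, 7 were then called higher and 4 lower, and of all genes called 83.7% were higher, against 44.2% as normalized. Relative to all genes, the median enzyme was -0.4 as normalized and -0.38 as deposited. With median centring, 5 were called higher and 8 lower in WT liver. In lsPERK minus WT under tunicamycin, 1 was called higher and 3 lower as deposited, and 2 higher and 4 lower with median centring. On Xist-low arrays alone 12 were called in that comparison, where Hmgcs1 (-1.05), Mvk (-0.85), Pmvk (-0.53), Fdft1 (-0.78) and Sqle (-1) were also lower and Stard4 was no longer called; on Xist-high arrays alone 5 were called. In the difference between responses, 0 were called higher and 4 lower as deposited, and 1 higher and 2 lower with median centring.

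Other genes of sterol handling were read from lists of the same pathway, to be set against the shares of all genes called, 8.42% higher and 7.27% lower in the lsPERK response and 20.7% higher and 26% lower in the WT response. Of 7 further synthesis and uptake genes tested, 2 fell in lsPERK liver, and 4 fell and 1 rose in WT liver. Lrp1, a receptor for lipoprotein remnants, differed by -1.32 in lsPERK and by -3.14 in WT liver (adjusted p = 3.46e-05 and 2.75e-09), and the responses differed by 1.82 (adjusted p = 8.26e-05). Acss2, which makes acetyl-CoA from acetate, fell in both (-1.46 in lsPERK and -1.24 in WT liver). Scarb1, the receptor for high-density lipoprotein, and Cyb5r3, a reductase that passes electrons to sterol enzymes, fell in WT liver (-0.69 and -0.74).

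Of 8 genes of SREBP cleavage and sterol-driven degradation, 0 were called in lsPERK liver, while 4 fell and 2 rose in WT liver. Rnf139, a ubiquitin ligase of the endoplasmic reticulum, and Aup1, a partner of such ligases, fell there (-0.59 and -0.57). Erlin1, a membrane protein that restrains SREBP, rose there (1.18, adjusted p = 0.000219) and its partner Erlin2 fell (-0.66, adjusted p = 0.000618). The responses differed by -1.31 for Erlin1 and by 0.58 for Erlin2 (adjusted p = 0.00483 and 0.0326).

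Of 11 genes of oxysterol sensing and sterol disposal, 3 fell and 1 rose in lsPERK liver, and 6 fell and 0 rose in WT liver. Lpcat3, which remodels phospholipids, fell in both (-1.23 in lsPERK and -1.19 in WT liver). Cyp7a1, which sets the pace of bile acid production, differed by -3.79 in lsPERK liver (adjusted p = 0.000221) and by -2.37 in WT liver (adjusted p = 0.00179). In lsPERK liver Rxra, the partner of the oxysterol receptors, fell (-0.57) and Abca1, a cholesterol exporter, rose (0.52). Abcg5 and Abcg8, which form the pump that moves sterol into bile, fell in WT liver (-1.51 and -1.77), as did Nr1h3, an oxysterol receptor (-0.68). The responses differed by 1.57 for Abcg5, 1.2 for Abcg8 and 0.6 for Abca1 (adjusted p = 0.000384, 0.0493 and 0.0477).

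Of 13 fatty acid synthesis targets of SREBP1, 2 fell in lsPERK liver (Fads2, -1, and Fads1, -0.52) and 6 in WT liver, these 2 among them, and 0 rose in either. Gpam, which starts triglyceride assembly, fell in WT liver (-1.37, adjusted p = 5.06e-06). The acetyl-CoA carboxylases Acacb and Acaca fell there too (-2.63 and -1.04), as did Fasn, fatty acid synthase (-1.47, adjusted p = 0.00123). The responses differed by 1.08 for Gpam, 1.28 for Acaca and 1.63 for Fasn (adjusted p = 0.00299, 0.0107 and 0.0166).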

How the data were processed

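Per the labels, total liver RNA was labelled with biotin for Affymetrix 3′ expression arrays. The authors deposited 1 linear intensity per probe set and array; per the submitters' processing notes these came from MAS5 and GCOS, with the scaling not given in the sources used here. Array medians ran from 34.6 to 53.5. No depth exists for arrays, and their number limits the precision.

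The deposited intensities were taken to log2 and quantile normalized after removal of 64 control probe sets of 45101. Probe sets with 1 gene in the platform annotation (34945) were used where at least 3 arrays exceeded the pooled median (log2 5.37), and each gene by its brightest (12085 genes). Group means of 14 arrays were fitted with limma 3.58.1 (R 4.3.3; eBayes with a trend, 10 residual degrees of freedom), two-sided, with Benjamini-Hochberg adjustment over all genes. The threshold for a call was an adjusted p of 0.05. All 28 members are named, and of each other list the genes called among the 4 with the smallest p in each response. The members and lists were chosen with earlier results of these data known. The fit was tested on simulated data.

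In lsPERK liver, same-numbered treated and control arrays deviated together (correlations 0.273, 0.242 and 0.349), so that comparison was repeated with the number as a block. In both lsPERK groups replicates 1 and 2 are Xist-high and 3 Xist-low, so the shared deviation and Xist status cannot be told apart there. Over all pairs of groups, 12 of 18 same-numbered pairs correlated above 0.1. Alternatives covered normalization, filters, low values, variance models, probe set choice, a 3′ to 5′ actin covariate, Xist status, the block and each array left out. Figures were drawn with Python and matplotlib.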

Additional observations from a re-analysis of the deposited data

Results flagged for a closer look

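Insig1 on lsPERK tunicamycin replicate 1 stood far from the rest of its group, at 3869 against 2480 to 2664, a gap of 0.839 of the group's range. Lbr on WT tunicamycin replicate 2, at 1192 against 792 to 827, had a gap of 0.894 of the range. Of 54 groups of 4 arrays examined, these 2 were marked; chance marks about 1 in 20.

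The tunicamycin response differed between the genotypes, by the test of the difference itself (lsPERK minus WT, log2), for Mvd (-2.77), Fdps (-1.47), Npc1 (-1.35), Lss (-1.26) and Scap (0.96). These were 5 of 27 genes, where 19.9% of all genes were called. The call was lost in 15 of 29 alternatives for Fdps and in 18 of 30 for Lss. It was lost in 3 of 30 for Scap, 1 of 30 for Mvd and 1 of 29 for Npc1.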

How the results depend on the processing

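Of 1182 tests of called members under 30 alternative settings, 1033 stayed called with the same direction, and no called gene changed sign. The calls that held under every setting run were Fdft1, Insig2 and Srebf1 in the lsPERK response; Mvd, Dhcr7, Srebf1 and Npc1 in the WT response; and Mvd, Dhcr7 and Npc1 in lsPERK minus WT under tunicamycin.

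The members called numbered 9 in the lsPERK response, or 5 on Xist-low arrays alone. In the WT response they numbered 18, or 11 as deposited, 7 of 14 with the second brightest probe set, 10 on Xist-high and 20 on Xist-low arrays. In lsPERK minus WT under tunicamycin 8, or 4 as deposited, 3 with the second brightest probe set, 5 on Xist-high and 12 on Xist-low arrays. In the difference between responses 5, or 3 with median centring, without a filter, without a trend or with the robust fit, and 2 with the second brightest probe set, on Xist-low and on Xist-high arrays.

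Counts of all genes called in the lsPERK response were 1897, or 695 as deposited, 795 with the second brightest probe set, 696 on Xist-low and 992 on Xist-high arrays. In the WT response they were 5642, or 2347 with the second probe set and 3043 on Xist-high arrays. Under tunicamycin they were 4269, or 2662 as deposited, 1675 with the second probe set and 2070 on Xist-high arrays. Under control they were 0, or 1 with the actin and 1 with the Xist covariate, 17 on Xist-low and 7 on Xist-high arrays. For the difference they were 2401, or 802, 1178 and 671 with the second probe set, on Xist-low and on Xist-high arrays. The second probe set could be tested for 5635 genes. The Xist subsets hold fewer arrays, with 1 array in some groups.

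The median enzyme was -0.08 as deposited in the WT response, -0.69 as deposited in the difference between responses, 0.31 on Xist-high arrays under tunicamycin, and -0.3 on Xist-low and 0.73 on Xist-high arrays under control. The cause of these shifts was not tested.

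Leaving out each array in turn gave 6 to 12 members and 1119 to 2057 genes called in the lsPERK response, with an enzyme median of -0.89 to -0.43; 14 to 20, 4897 to 5707 and -0.66 to -0.43 in the WT response; 6 to 8, 3685 to 4362 and -0.15 to 0.04 under tunicamycin; 0 to 0, 0 to 1 and -0.01 to 0.41 under control; and 3 to 5, 1928 to 2291 and -0.37 to -0.1 for the difference.

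With the replicate number as a block, 8 members were called in the lsPERK response, 18 in the WT response, 10 under tunicamycin, 0 under control and 5 in the difference. Besides Mvk in both responses, the block ended the Fdps difference (adjusted p = 0.0648) and called Srebf2 in the WT response, Idi1 and Insig1 under tunicamycin, and the Dhcr7 difference (adjusted p = 0.0443). Outside the lsPERK response the samples share only a number, with correlations from -0.366 to 0.419.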
